A study of Homo sapiens with 8 samples.

Results

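Genes of the interferon response were followed in PC3, an established cell line from human prostate cancer. The 40 members, of 58051 genes in the deposited table, are interferon-stimulated genes and sensors of double-stranded RNA, and they were named as a list, with no threshold on their values. They were compared between 4 samples transduced with a lentiviral hairpin against IER5L (shIER5L) and 4 transduced with a scrambled control hairpin (shScramble). Both groups therefore carried a lentiviral vector with a short hairpin and, per the study's methods, puromycin selection. No untransduced sample was analysed here. All shIER5L samples carried a single hairpin, sh2 IER5L, in a single cell line, so an effect of the hairpin itself and an effect of lower IER5L cannot be told apart. Replicates are given as separate biological replicates, and p-values measure the spread between them. The study's methods mention 4 plates of cells per experiment and do not state whether each replicate was transduced separately. If not, that spread is the one between plates of the same transduced cells.

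Interferon genes are switched on when sensors such as RIG-I, MDA5, TLR3 and PKR meet double-stranded RNA or other foreign nucleic acid. Secreted type I and type III interferons then act through receptors and the kinases JAK1 and TYK2 on a complex that holds STAT2 and IRF9 and binds the interferon-stimulated response element (ISRE) in the promoters of its targets. Hairpin RNA is itself double-stranded over its stem, and the genes of this response are therefore commonly read as a check in hairpin experiments.

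The hairpin of the shIER5L samples is shown because it is the double-stranded RNA that differs between the groups. Its 21-base sequence, as the study lists it, was:

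sh2 IER5L: gacgcgtccaacatctcaaac

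The ISRE letters were looked up in the promoter windows of the members, since this element is what links them. RefSeq windows (GRCh38.p14) from 250 bases before to 50 bases after a gene's start were found for 34 of the 40 members, and none was found for IFIT2, IFITM2, IRF7, OAS2, OASL and USP18. The letters GAAA, any 2 bases and GAAA again, read on both strands with overlapping matches counted, were present in a window of 25 of these 34 members, or 73.5%. Over all 27305 genes with a window the share was 4.38%. They are printed as 30 bases for 6 members on the strand of the gene, with the 10 matching bases in capitals:

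ISG15, chr1:1013380-1013409, plus strand: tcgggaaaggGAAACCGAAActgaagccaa

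MX1, chr21:41420559-41420588, plus strand: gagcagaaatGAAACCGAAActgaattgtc

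IFIT1, chr10:89392510-89392539, plus strand: cactttccccTTTCGGTTTCcctaggtttc

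SAMD9, chr7:93118096-93118125, minus strand: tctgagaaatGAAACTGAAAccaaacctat

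BST2, chr19:17405741-17405770, minus strand: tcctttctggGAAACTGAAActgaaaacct

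DTX3L, chr3:122564322-122564351, plus strand: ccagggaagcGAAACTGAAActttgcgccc

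The DTX3L match lies between 2 members that are transcribed in opposite directions, and the same bases were counted for PARP9 on the other strand. IFIT1 carries the letters in reverse orientation, as TTTCGGTTTC. In the other 9 members with a window, RIGI, STAT2, IRF1, IRF9, OAS1, HERC6, IFI35, SAMD9L and XAF1, these letters were not in the window searched. A match of letters is a description of the sequence and was not tested as a binding site.

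The labels and the depth were checked first. Total counts ran from 21512128 to 24662190 per sample. IER5L, the targeted gene (ENSG00000188483), was at 3.91, 6.51, 5.62 and 3.23 CPM (counts divided by the TMM-corrected library size) in shScramble replicates 1 to 4 and at 2.73, 3.02, 2.04 and 1.32 in shIER5L replicates 1 to 4. Each shIER5L sample lay below each shScramble sample, and the log2 fold change of shIER5L over shScramble was -1.08 ± 0.25 (SE; adjusted p = 0.0212, edgeR quasi-likelihood test with Benjamini-Hochberg adjustment over all 16959 genes kept). IER5L shares 39.2% of its exonic bases with antisense genes, and the counting did not use strand. On leaving out 1 sample at a time its value ran from -1.24 to -0.90, and the adjusted p was above 0.05 without shIER5L replicate 3 (0.0891), shScramble replicate 2 (0.0937) or shScramble replicate 3 (0.0780). Markers of PC3 were present, with KRT18 at 125 and VIM at 104 RPKM (CPM per kilobase of exon) and KLK3 at 0 counts in the 8 samples. Of the markers of blood cells, PTPRC had at most 4 counts in a sample, CD14 at most 8, CD68 at most 2, and CD3E, CLEC4C and LILRA4 had 0. LYZ and IL3RA, also on these marker lists, were detected at low level, with 18 to 53 and 14 to 36 counts per sample (0.739 and 0.527 RPKM).

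One sample stood apart for the genes described here and has to be known before the comparisons are read. In shIER5L replicate 1, 35 of the 40 members had their highest value of the 8 samples, whereas 11.4% of all genes kept were highest in that sample. The members' CPM summed to 2482 there, against 1805.5, 1668.1 and 1538.5 in shIER5L replicates 2, 3 and 4 and 1923.2, 1520.2, 1727.9 and 1614.1 in shScramble replicates 1 to 4. The median member lay 0.51 above its own mean over the 8 samples in that sample, on the scale of log2(CPM + 0.5), while the median of all genes lay 0.01 above. Its depth, 22974610 counts, lay within the range of the others. The opposite end was held by shIER5L replicate 4, which was lowest in 15 members (16.1% of all genes), and by shScramble replicate 2, which was lowest in 13 (14.6% of all genes). Part of the group thus sat at either end of the range, and each member described sample by sample is given with and without shIER5L replicate 1.

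**Figure D1:**
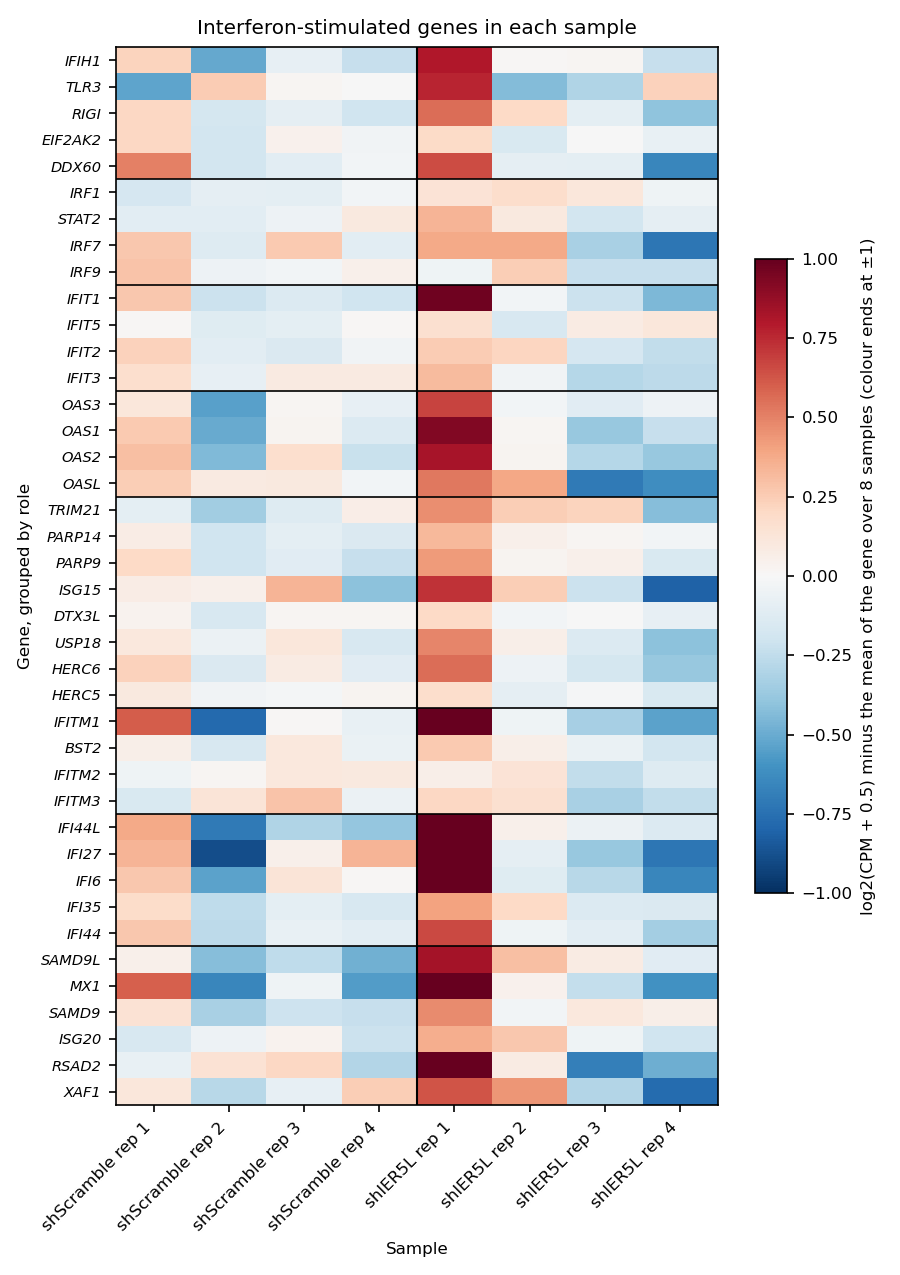
Each of the 40 members (rows, grouped by role) in each of the 8 samples (columns), coloured by log2(CPM + 0.5) minus the mean of that gene over the 8 samples. The column of shIER5L replicate 1 is red for nearly all members, the highest of the 8 samples in 35 of 40, while shIER5L replicates 3 and 4 and shScramble replicate 2 are mostly blue.

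The spread between samples differed between the groups accordingly. The SD of log2(CPM + 0.5) was larger in shIER5L than in shScramble in 39 of 40 members, EIF2AK2 being the exception, and in 58.2% of all genes kept. The median SD of the members was 0.39 in shIER5L and 0.20 in shScramble, against 0.14 and 0.12 over all genes. Without shIER5L replicate 1, the median SD of the members in shIER5L was 0.21, and it was larger than in shScramble in 22 of 40 members (55.8% of all genes). That sample was singled out for its high values in these genes, so a smaller SD without it follows in large part from that choice.

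**Figure D2:**
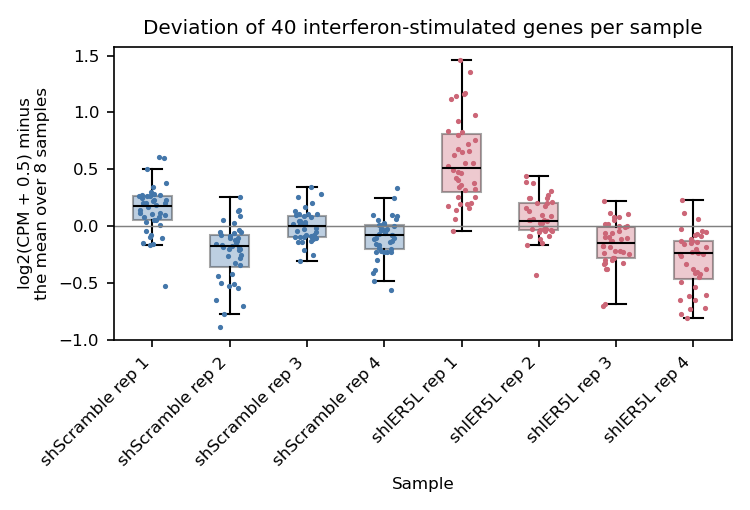
Deviation of each of the 40 members (points) from its mean over the 8 samples, on the log2(CPM + 0.5) scale, for each sample, with boxes from the first to the third quartile, a line at the median and whiskers to the farthest point within 1.5 box lengths. The median is 0.51 in shIER5L replicate 1 and lies between -0.24 and 0.18 in the other 7 samples.

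The members were expressed over a wide range. All 40 passed the filter on low counts, and their mean level over the 8 samples ran from 0.100 RPKM (TLR3) to 160 RPKM (BST2), with a median of 6.28. The 5 highest levels belonged to BST2, ISG15 (95.3 RPKM), IFI6 (48.04), IFITM2 (28.0) and IFIT3 (26.5). At the low end stood TLR3, XAF1 (0.182 RPKM), IRF9 (0.995), IRF7 (1.08) and RSAD2 (1.204). The lengths are those of merged exons in the table, which lowers the RPKM of genes with long annotated exons that are little used.

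No member passed the test between shIER5L and shScramble. With edgeR's quasi-likelihood test, 0 of 40 members had an adjusted p under 0.05, where 3.93% of all genes kept did (2.46% higher and 1.46% lower). At an unadjusted p under 0.05 there were 5 of 40, all higher in shIER5L, namely SAMD9L, SAMD9, PARP14, IRF1 and IFI44L (background 16.5% of genes, of which 9.69% higher and 6.78% lower). DESeq2 and limma voom also called 0 members after adjustment (916 of 35729 and 667 of 16959 genes). They had 3 and 4 members at an unadjusted p under 0.05 (2638 and 2826 of these genes). Other settings did call members, all higher: edgeR's likelihood ratio test called 1, SAMD9L (adjusted p = 0.0139), and 864 of all 16959 genes. The quasi-likelihood test without a filter on low counts called 7, namely SAMD9L, SAMD9, PARP14, IFI44L, MX1, IFIT1 and IFIH1 (903 of 35729 genes). With a term for the replicate number (the replicate block) it called 4, namely SAMD9L, SAMD9, PARP14 and IFI44L (655 of all 16959 genes). It called 2 members without shScramble replicate 1 (558 of 17409 genes) and 2 without shIER5L replicate 4 (553 of 17396). In the quasi-likelihood fit given first, with the filter, all 8 samples and no block, no member reached the study's definition of differential expression. That definition is an adjusted p under 0.05 together with a log2 fold change of 0.5 or more in size (0.79% of all genes). It was reached by 1 member with the likelihood ratio test (193 of 16959 genes), 2 without the filter (177 of 35729) and 2 with the block (137 of 16959). Without shScramble replicate 1 or without shIER5L replicate 4 it was reached by 1 (128 of 17409 and 131 of 17396 genes). With all 8 samples, in no member did the 4 values of one group lie entirely above or below those of the other (6.33% of all genes higher and 4.61% lower).

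The fitted log2 fold changes nonetheless leaned to one side with all 8 samples. They were above 0 in 31 members and below 0 in 9 (50.6% of all genes were above 0), with a median of 0.16 against 0.0021 over all genes. Without shIER5L replicate 1 the lean was turned: each of the 40 values became lower, 19 changed sign, 12 were above 0 and 28 below (49.4% of all genes above 0), and the median was -0.12. That sample was singled out for its high values in these genes, so a fall on leaving it out follows in large part from that choice. No member had an adjusted p under 0.05 in that fit (2.98% of all genes, of which 1.87% higher and 1.11% lower). At an unadjusted p under 0.05 there were 3 higher members, SAMD9L, SAMD9 and IRF1 (9.06% of all genes), and 2 lower members, IFIT3 and IFI6 (6.67%). On leaving out any other single sample, 28 to 36 members stayed above 0 and the median ran from 0.06 to 0.25 (-0.0026 to 0.0045 over all genes). The highest was without shIER5L replicate 4, with 36 members above 0 and 4 below. Among the single samples left out, only shIER5L replicate 1 thus turned the direction of the list.

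**Figure D3:**
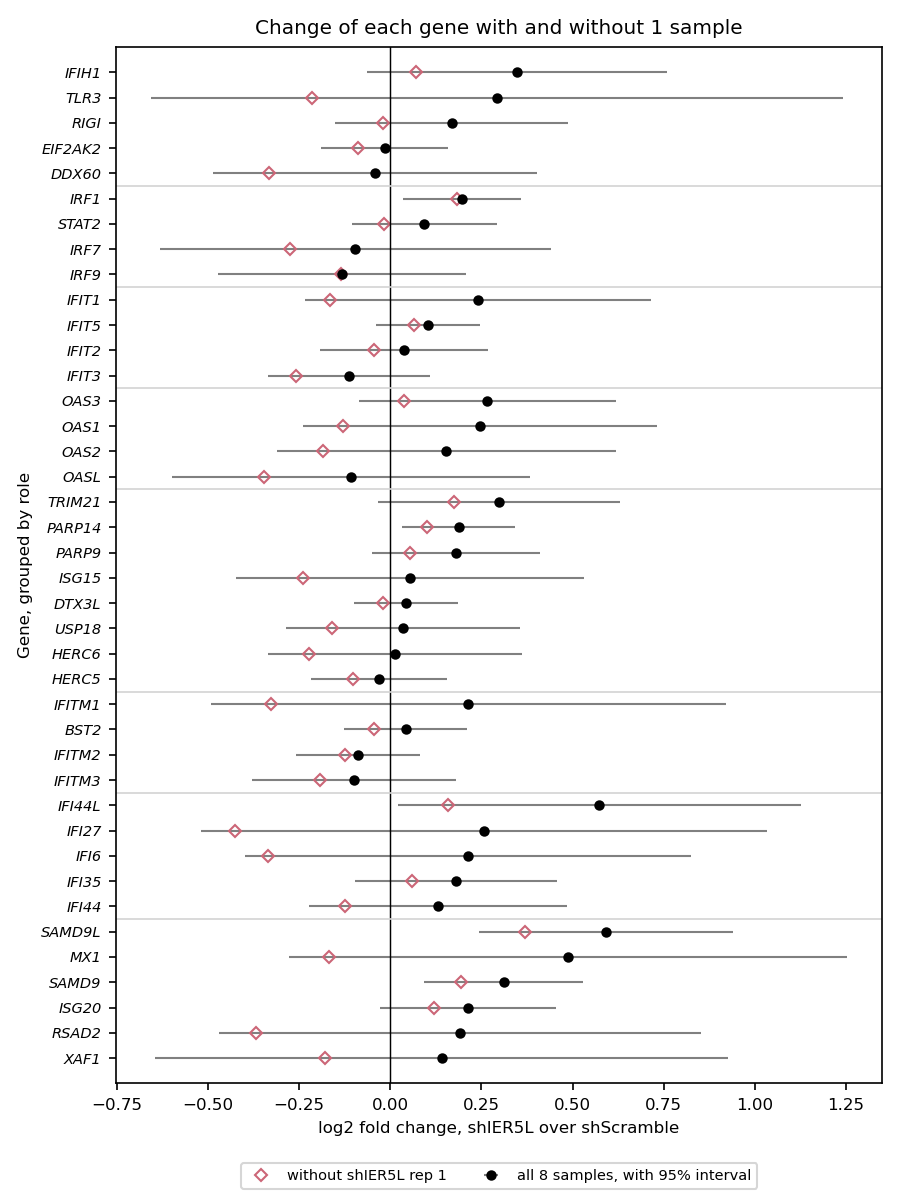
Log2 fold change of each member, shIER5L over shScramble, with all 8 samples (filled circles, bars for the 95% interval) and without shIER5L replicate 1 (open diamonds). The open symbol lies to the left of the filled one for all 40 members, and 35 of the 40 intervals include 0. The sample left out was singled out because most members are highest in it.

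The intervals say how large a change these samples leave possible. The 95% interval included no change in 35 of 40 members. Its upper bound was at most a 1.5-fold increase in 25 members, and it was above 2-fold in 4: MX1 (2.38), TLR3 (2.36), IFI44L (2.18) and IFI27 (2.05). Changes up to these sizes in those genes lay within the intervals.

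The sensors of double-stranded RNA come first in the pathway, and none of the 5 passed the test. RIGI (ENSG00000107201, chr9:32455705-32526324, minus strand, hg38) encodes RIG-I, which senses RNA with a 5' triphosphate. It was at 53.7, 41.1, 43.6 and 40.4 CPM in shScramble replicates 1 to 4 and at 68.7, 53.5, 43.4 and 35.1 in shIER5L replicates 1 to 4. The shIER5L samples held both the highest and the lowest value, and the log2 fold change was 0.17 ± 0.15 (SE; adjusted p = 0.654), or -0.02 without shIER5L replicate 1. IFIH1, which encodes MDA5, a sensor of long double-stranded RNA, was at 18.6, 10.9, 14.9 and 13.4 CPM in shScramble and at 28.1, 16.0, 16.1 and 13.4 in shIER5L. Only replicate 1 of shIER5L lay above all shScramble samples, and the log2 fold change was 0.35 ± 0.19 (adjusted p = 0.410), or 0.07 without that sample.

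TLR3, the endosomal receptor for double-stranded RNA, was near the detection limit at 0.283, 0.846, 0.642 and 0.627 CPM in shScramble and 1.41, 0.336, 0.416 and 0.822 in shIER5L. Its groups overlapped, with a log2 fold change of 0.29 ± 0.45 (adjusted p = 0.821) that was -0.21 without shIER5L replicate 1. EIF2AK2 encodes PKR, the kinase that stops translation on binding double-stranded RNA. It was at 84.8, 64.9, 75.8 and 71.8 CPM in shScramble and at 84.3, 66.3, 73.5 and 70.1 in shIER5L. The values of the groups almost coincided, and the interval of the fold ran from 0.877 to 1.12 around a log2 fold change of -0.02 ± 0.08 (adjusted p = 0.958), or -0.09 without shIER5L replicate 1. DDX60, a helicase described as a cofactor of RIG-I, ranged from 19.4 to 31.5 CPM in shScramble and from 13.8 to 35.0 in shIER5L.

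Among the transcription factors, IRF1 stood out for its narrow spread. IRF1, an activator induced by interferon gamma in particular, was at 20.2, 21.4, 21.2 and 22.4 CPM in shScramble and at 25.1, 25.8, 24.6 and 22.1 in shIER5L. In shIER5L, 3 of 4 samples lay above all shScramble samples, here with replicate 2 rather than replicate 1 at the top. In the fit, the log2 fold change was 0.20 ± 0.08 (unadjusted p = 0.0207, adjusted p = 0.195), and it was 0.18 ± 0.09 without shIER5L replicate 1. The other 3 members of this role belong to the STAT and IRF complexes themselves. STAT2 ranged from 52.2 to 60.2 CPM in shScramble and from 49.3 to 71.3 in shIER5L, IRF7 from 2.45 to 3.39 and from 1.46 to 3.70, and IRF9 from 3.59 to 4.67 and from 3.11 to 4.54. Their log2 fold changes lay between -0.13 and 0.09, and between -0.27 and -0.02 without shIER5L replicate 1. IRF9 shares 48.4% of its exonic bases with an overlapping gene on the same strand, so its count is uncertain.

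The IFIT genes, whose proteins bind foreign RNA and block its translation, are among the most strongly induced targets of interferon. IFIT1 was at 75.8, 54.2, 57.1 and 54.8 CPM in shScramble and at 124, 61.8, 54.0 and 45.8 in shIER5L. Replicate 1 was the highest sample of each group, and the shIER5L samples also held the lowest value. Its log2 fold change was 0.24 ± 0.22 (adjusted p = 0.670) with all samples and -0.17 without shIER5L replicate 1. IFIT2 was at 65.4, 51.5, 50.4 and 54.2 CPM in shScramble and at 66.5, 64.5, 49.3 and 46.9 in shIER5L, with a log2 fold change of 0.04 ± 0.11 (adjusted p = 0.913) that was -0.05 without that sample. The ranges of the groups were nearly the same.

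IFIT3, the member of the family with the highest level per exon length, was at 77.8, 65.5, 73.7 and 73.9 CPM in shScramble and at 86.5, 67.8, 56.9 and 57.7 in shIER5L. Below all shScramble samples lay 2 shIER5L samples, and 1 lay above them. With all samples, its log2 fold change was -0.11 ± 0.10 (adjusted p = 0.670). Without shIER5L replicate 1 it was -0.26 ± 0.08 (unadjusted p = 0.0037, adjusted p = 0.0840). IFIT5 ranged from 73.3 to 80.4 CPM in shScramble and from 71.3 to 89.3 in shIER5L, with a log2 fold change of 0.10 ± 0.07 (adjusted p = 0.489).

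The oligoadenylate synthetases make an oligonucleotide second messenger of the antiviral response when they bind double-stranded RNA. OAS1 was at 26.6, 15.4, 22.5 and 20.03 CPM in shScramble and at 42.3, 22.4, 16.9 and 18.7 in shIER5L. All values but that of shIER5L replicate 1 lay within the range of shScramble, and the log2 fold change was 0.25 ± 0.23 (adjusted p = 0.670), or -0.13 without it. OAS2 ranged from 18.1 to 30.7 CPM in shScramble and from 19.0 to 44.4 in shIER5L, and OAS3 from 15.3 to 24.4 and from 20.8 to 36.2. OASL, a related protein without the enzyme activity, ranged from 7.98 to 9.76 CPM in shScramble and from 4.78 to 11.9 in shIER5L. In shIER5L all 4 genes of the family were highest in replicate 1, and their SD on the log2 scale was larger than in shScramble.

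The ubiquitin-like modifier ISG15 and the enzymes around it form the largest group, of 8 members. ISG15 (ENSG00000187608, chr1:1001138-1014541, plus strand) was at 90.4, 88.9, 108.9 and 64.2 CPM in shScramble and at 142, 101.5, 73.6 and 48.8 in shIER5L. Both the highest and the lowest of the 8 values were shIER5L samples. The log2 fold change was 0.05 ± 0.23 (adjusted p = 0.946), or -0.24 without shIER5L replicate 1. USP18, the protease that removes ISG15 and dampens receptor signalling, ranged from 12.6 to 15.3 CPM in shScramble and from 10.5 to 20.02 in shIER5L. HERC5, the main ligase for ISG15, ranged from 18.0 to 19.8 and from 16.6 to 21.0, and its relative HERC6 from 12.6 to 16.6 and from 10.7 to 20.9. TRIM21, a cytosolic antibody receptor and ubiquitin ligase, ranged from 8.58 to 11.6 CPM in shScramble and from 8.09 to 15.4 in shIER5L. Its log2 fold change was 0.30 ± 0.16 (adjusted p = 0.374), and 0.45 without shIER5L replicate 4, its lowest sample (adjusted p = 0.0362 by edgeR). It was 0.18 without shIER5L replicate 1, its highest sample (adjusted p = 0.658).

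PARP14, PARP9 and DTX3L lie next to each other on chromosome 3 and encode ADP-ribosyltransferases and the ubiquitin ligase partner of PARP9. PARP14 was at 259, 214, 229.5 and 223 CPM in shScramble and at 308.5, 254.5, 249 and 241 in shIER5L. Each shIER5L sample lay above 3 of the 4 shScramble samples. This gave a log2 fold change of 0.19 ± 0.07 (unadjusted p = 0.0203, adjusted p = 0.193), which was 0.10 ± 0.06 without shIER5L replicate 1 (unadjusted p = 0.109). PARP9 ranged from 72.2 to 97.6 CPM in shScramble and from 76.2 to 114 in shIER5L, with a log2 fold change of 0.18 ± 0.11 that was 0.05 without shIER5L replicate 1. DTX3L ranged from 58.7 to 67.2 and from 61.9 to 75.1, with a log2 fold change of 0.04 ± 0.07. PARP9 and DTX3L overlap on opposite strands in 2.43% and 3.70% of their exonic bases.

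The restriction factors of membranes and vesicles include the most abundant member, BST2 (tetherin), which holds budding viruses at the cell surface. BST2 was at 185, 159, 192 and 170 CPM in shScramble and at 213, 186, 170.5 and 157 in shIER5L. The groups overlapped, and the log2 fold change was 0.04 ± 0.08 (adjusted p = 0.862), with an interval from 0.915-fold to 1.16-fold, and -0.05 without shIER5L replicate 1. IFITM2, which blocks entry of viruses through endosomes, was at 41.8, 43.8, 46.4 and 46.2 CPM in shScramble and at 44.9, 47.3, 36.2 and 39.2 in shIER5L. The shIER5L samples lay below the range of shScramble in 2 cases and above it in 1, with a log2 fold change of -0.09 ± 0.08 (adjusted p = 0.657), or -0.12 without shIER5L replicate 1. IFITM1 ranged from 4.06 to 11.4 CPM in shScramble and from 4.89 to 16.7 in shIER5L, and IFITM3 from 13.7 to 18.7 and from 12.1 to 17.7. The 3 IFITM genes are uncertain as single genes: 17.9% of the 100-base windows of IFITM1, 6.81% of those of IFITM2 and 8.26% of those of IFITM3 also occur in transcripts of other genes, the other IFITM genes among them. The same holds for 40.8% of the windows of RIGI, shared with ENSG00000288684, for 15.5% of those of USP18, for 15.4% of those of IRF9, for 10.7% of those of IFI6 and for 6.28% of those of IFIT2, so these genes carry the same uncertainty.

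Among the genes named for their induction by interferon, the 5 IFI members had the largest median SE of the 8 roles, 0.26 on the log2 scale, and 0 of 5 passed the test. IFI44L was at 34.1, 15.8, 21.0 and 19.8 CPM in shScramble and at 59.0, 27.0, 25.0 and 23.7 in shIER5L. All shIER5L samples lay above 3 of the 4 shScramble samples, and the highest shScramble sample lay above 3 of the 4 shIER5L samples. It had a log2 fold change of 0.57 ± 0.26 (unadjusted p = 0.0432, adjusted p = 0.281), and without shIER5L replicate 1 it was 0.16 ± 0.18 (adjusted p = 0.740).

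IFI6, a regulator of apoptosis at the mitochondrion, was at 46.6, 26.5, 42.2 and 38.8 CPM in shScramble and at 87.1, 35.4, 31.6 and 24.3 in shIER5L. In shIER5L, 3 samples lay below 3 of the shScramble samples, and the remaining sample was the highest of all. The log2 fold change was 0.21 ± 0.29 (adjusted p = 0.789), and -0.34 ± 0.15 without shIER5L replicate 1 (unadjusted p = 0.0453, adjusted p = 0.304). IFI27 was at 15.0, 6.13, 12.2 and 15.0 CPM in shScramble and at 30.8, 11.01, 8.90 and 6.90 in shIER5L, with a log2 fold change of 0.26 ± 0.37 (adjusted p = 0.802) that became -0.43 ± 0.24 without that sample. In both genes the sign turned on 1 sample. IFI35 ranged from 13.1 to 18.0 CPM in shScramble and from 14.2 to 21.0 in shIER5L, and IFI44 from 30.2 to 43.8 and from 28.6 to 57.6.

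The remaining effectors held the member with the smallest p. SAMD9L (ENSG00000177409, chr7:93130055-93148369, minus strand), a restriction factor that limits translation and growth, was at 32.6, 23.2, 26.2 and 22.3 CPM in shScramble and at 56.2, 38.8, 33.2 and 28.9 in shIER5L. Above all shScramble samples lay 3 of the 4 shIER5L samples, and the last lay above 3 of them. SAMD9L had a log2 fold change of 0.59 ± 0.16 (unadjusted p = 0.0025, adjusted p = 0.0574), a 1.51-fold difference with an interval from 1.18 to 1.92. Without shIER5L replicate 1 it was 0.37 ± 0.12 (unadjusted p = 0.0088, adjusted p = 0.137). SAMD9, its neighbour and paralog on chromosome 7, was at 182.5, 132, 143 and 141 CPM in shScramble and at 229, 162, 178 and 172 in shIER5L. Each shIER5L sample lay above 3 of the 4 shScramble samples, with a log2 fold change of 0.31 ± 0.10 (unadjusted p = 0.0080, adjusted p = 0.118), and 0.19 ± 0.09 without shIER5L replicate 1 (adjusted p = 0.290). Leaving out shScramble replicate 1, the highest shScramble sample in both genes, brought both past the threshold by edgeR (SAMD9L 0.71, adjusted p = 0.0382; SAMD9 0.42, adjusted p = 0.0240), as did leaving out shIER5L replicate 4 for SAMD9L (0.71, adjusted p = 0.0086). Both neighbours thus had values above 0 with and without these samples, on either side of the threshold.

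MX1, a dynamin-like GTPase against influenza and other viruses, was at 36.2, 14.9, 23.0 and 15.9 CPM in shScramble and at 66.1, 24.5, 20.01 and 15.4 in shIER5L. Aside from replicate 1 of shIER5L, all values of that group lay within the range of shScramble. The log2 fold change of 0.49 ± 0.36 (adjusted p = 0.562) became -0.17 ± 0.24 without that sample. RSAD2 (viperin), which makes a chain-terminating nucleotide, ranged from 4.30 to 6.30 CPM in shScramble and from 3.16 to 12.3 in shIER5L. The exonuclease ISG20 ranged from 18.8 to 22.5 and from 19.0 to 28.4, and the proapoptotic XAF1 from 0.846 to 1.43 and from 0.457 to 2.03. XAF1 shares 38.3% of its exonic bases with an antisense gene.

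**Figure D4:**
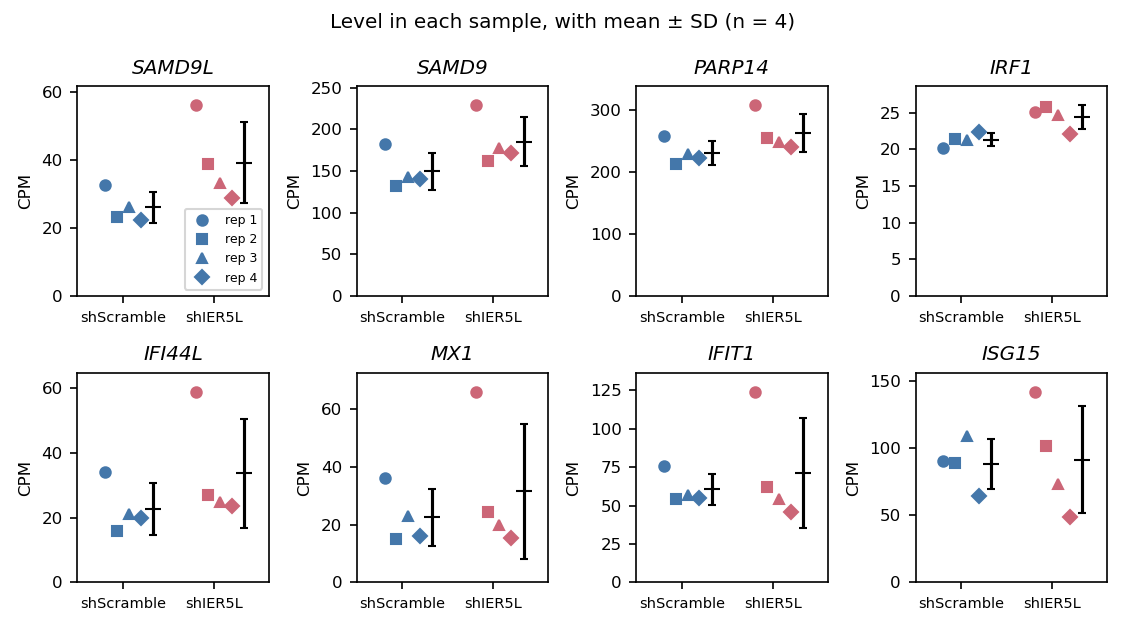
CPM of 8 members in each sample (points, with 1 symbol per replicate number) and the mean ± SD (n = 4) of each group, on axes that start at 0. SAMD9L, SAMD9, PARP14, IRF1 and IFI44L are the members with an unadjusted p under 0.05; in MX1, IFIT1 and ISG15 a single shIER5L sample, replicate 1, lies above all other samples.

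The members with the ISRE letters were compared with those without, since this feature was not used to choose them. With all 8 samples the median log2 fold change was 0.19 in the 25 members with a match and 0.17 in the 9 with a window but no match. Without shIER5L replicate 1 the medians were -0.10 and -0.02. The highest value fell in shIER5L replicate 1 in 23 of the 25 and in 7 of the 9. These are descriptions, and no test was made between the subsets.

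The interferons themselves were close to absent from these libraries. Of 22 interferon genes, 1 passed the filter on low counts, the epithelial interferon IFNE, with 101 to 119 counts per sample and a log2 fold change of 0.09 ± 0.12 (adjusted p = 0.791). It was named after its values were seen. IFNB1, the first interferon made after RNA sensing in most cells, had 2 counts in each of shIER5L replicates 2 and 3 and 0 in the other 6 samples, and IFNL1, a type III interferon, had 2 counts in shScramble replicate 1 and 0 elsewhere. Of the other 21 ligands, 13 had 0 counts in each sample and none had more than 10. A count of 0 allows up to 0.122 to 0.139 CPM at these depths if counts are independent. The 2 reads of a pair were counted singly, so the true limit is higher. In shIER5L replicate 1, IFNB1 and IFNL1 were both at 0 counts. These limits cover counting error only.

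No receptor or signal transducer passed the test. Of 16 genes of the receptor and JAK-STAT list, 3 of them members, 15 passed the filter, 0 had an adjusted p under 0.05 and 2 an unadjusted p under 0.05, both higher (background 3.93% adjusted and 9.69% unadjusted and higher): IFNGR1 (0.20 ± 0.06, adjusted p = 0.120), a chain of the interferon gamma receptor, and the kinase JAK1 (0.12 ± 0.04, adjusted p = 0.126). The list had a median of 0.06 on the log2 scale. IFNAR2 shares 48.4% of its exonic bases with overlapping genes, so its count is uncertain.

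Among sensing and adaptor genes there was 1 call, a share near that of all genes. Of 28 listed genes, which include 5 of the members, 22 passed the filter, and IKBKE, a kinase that activates IRF3, had an adjusted p under 0.05 (background 3.93%). IKBKE was at 11.9, 12.1, 12.8 and 13.4 CPM in shScramble and at 8.20, 11.5, 7.78 and 9.41 in shIER5L, with all shIER5L samples below all shScramble samples. It fell by 0.45 ± 0.12 on the log2 scale (adjusted p = 0.0481), and the value was -0.39 without shIER5L replicate 1, no longer past the threshold (adjusted p = 0.125). Of the 8 samples, leaving out any but shIER5L replicate 2 ended the call, with adjusted p up to 0.159. Genes with only an unadjusted p under 0.05 included TICAM1, the adaptor of TLR3 (0.99 ± 0.42, adjusted p = 0.238, at 0.182 RPKM, and 0.66 without shIER5L replicate 1), RNF135, a ligase that activates RIG-I (0.18 ± 0.08, adjusted p = 0.238), and MAVS, the mitochondrial adaptor of RIG-I and MDA5 (-0.18 ± 0.06, adjusted p = 0.162). IRF3 itself had a log2 fold change of -0.03 ± 0.09 (adjusted p = 0.931). The list's median was 0.06.

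A further list of 44 interferon-stimulated genes outside the 40 members did contain calls. With all 8 samples, of the 35 that passed the filter, 31 had a log2 fold change above 0 and 4 below, with a median of 0.14. Adjusted p was under 0.05 for 3 and unadjusted p for 13, all of these higher in shIER5L (background 2.46% and 9.69% higher). APOL6, a lipid-binding protein of the apolipoprotein L family, rose by 0.48 ± 0.08 (adjusted p = 0.0022). GBP3, a guanylate-binding GTPase, rose by 0.31 ± 0.05 (adjusted p = 0.0039), and IFI16, a nuclear DNA sensor, by 0.40 ± 0.09 (adjusted p = 0.0143), all on the log2 scale. In each of the 3 the groups did not overlap.

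The 3 calls held without shIER5L replicate 1, with log2 fold changes of 0.41, 0.29 and 0.31 and adjusted p of 0.0071, 0.0156 and 0.0398 by edgeR for APOL6, GBP3 and IFI16. On leaving out each of the 8 samples in turn, APOL6 and GBP3 stayed past the threshold, and IFI16 lost it without shScramble replicate 2, shScramble replicate 3 or shIER5L replicate 3 (adjusted p up to 0.0644). Of the 35 genes of this list, 27 had their highest value in shIER5L replicate 1 (11.4% of all genes). Without that sample, more of the 35 had a log2 fold change below 0, and fewer had an unadjusted p under 0.05. Short of the threshold, GBP1 had a log2 fold change of 0.49 ± 0.21 (adjusted p = 0.238), GMPR 0.36 ± 0.11 (adjusted p = 0.0876) and LAMP3 0.35 ± 0.16 (adjusted p = 0.262). The values were 0.24, 0.34 and 0.25 without shIER5L replicate 1, with unadjusted p of 0.189, 0.0132 and 0.136 by edgeR. The difference between these genes and the 40 members was not tested.

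Downstream of PKR lies the integrated stress response, which other kinases also start. All 17 genes of this list passed the filter, and 2 of them were highest in shIER5L replicate 1 (11.4% of all genes). Adjusted p was under 0.05 for 3, all higher (background 2.46%): SLC7A11, the cystine transporter (0.59 ± 0.06, adjusted p = 3.5e-05), ASNS, asparagine synthetase (0.35 ± 0.05, adjusted p = 3.4e-04), and PHGDH of serine synthesis (0.26 ± 0.07, adjusted p = 0.0373). SLC7A11 was at 219, 192, 192.5 and 223 CPM in shScramble and at 287, 298, 330.0 and 333 in shIER5L, without overlap. Unadjusted p was under 0.05 for 8 of the 17, all higher (background 9.69%), among them CHAC1 (0.46 ± 0.13, adjusted p = 0.0574), TRIB3 (0.32 ± 0.09, adjusted p = 0.0632) and SESN2 (0.35 ± 0.14, adjusted p = 0.204). Without shIER5L replicate 1, SLC7A11 and ASNS kept an adjusted p under 0.05 (3.7e-05 and 9.8e-04), and PHGDH did not (0.109). PHGDH stayed past it in 1 of the 8 fits with a sample left out, the one without shIER5L replicate 4. The list's median log2 fold change was 0.24.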

How the data were processed

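RNA from 8 PC3 samples, 4 shScramble and 4 shIER5L, was sequenced by RNA-seq. The sources differ on the library kit: the paper names a ribosomal and globin RNA depletion kit for total RNA, the labels a stranded mRNA kit. The authors deposited 1 table of raw counts (reads per gene, not normalized) with exon lengths. Per the paper, the submitters' processing notes and the command kept in the table, STAR 2.7.5c was used for alignment to hg38, SAMtools 1.15 for removal of duplicates and featureCounts 2.0.3 for counting of primary alignments over exons, with no strand option. The 2 reads of a pair were counted singly (64.4% to 65.6% of counts from 1 to 30 were even), so counts overstate fragments, and reads of overlapping or antisense genes cannot be told apart.

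Computed here: symbols were taken from GENCODE v44 by identifier. Genes were kept with filterByExpr (16959 of 58051), TMM scaling was applied, and the quasi-likelihood test of edgeR 4.0.16 (R 4.3.3, limma 3.58.1) was run with condition as its single term and Benjamini-Hochberg adjustment over all genes kept. Each standard error was the size of the log2 fold change over the square root of F, and 95% intervals use the t distribution. CPM are counts over TMM-scaled library sizes, and RPKM divide these by exon length. The fit was tested on simulated counts. The alternatives tried were scaling by RLE, by upper quartiles or by total counts only, no filter, a filter of at least 1 CPM in 4 samples, DESeq2 1.42.0, limma voom, the likelihood ratio test, a replicate block and leaving out each sample. The members, lists and rule for named genes were chosen with earlier results of these data known. By that rule all 40 members are named, with values in every sample for those with an unadjusted p under 0.05, the 5 highest by RPKM, 4 sensors and 8 response markers, and at most 6 genes per further list; some genes of these lists are not reported here.

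Promoter windows were searched in RefSeq sequence of GRCh38.p14. Windows of 100 bases of each member's GENCODE v44 transcripts were looked up in the transcripts of all other genes.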

Additional observations from a re-analysis of the deposited data

Results flagged for a closer look

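A value was marked when the highest or lowest of the 4 samples of a group lay far from the other 3, by Dixon's 95% criterion for the gap over the range. This was so in 4 of 82 groups checked, and chance marks about 1 in 20 groups. Of the 4, 2 were in shIER5L replicate 1: IFI44L at 59.0 CPM against 23.7 to 27.0 in the other shIER5L samples, and OAS3 at 36.2 CPM against 20.8 to 22.02. In shScramble, IFIT1 was at 75.8 CPM in replicate 1 against 54.2 to 57.1, and DTX3L at 58.7 CPM in replicate 2 against 66.3 to 67.2. The cause of none of the 4 was tested.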

How the results depend on the processing

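The members' values were recomputed under 17 alternatives, of which 8 left out 1 sample each. Of 679 values of single members, 615 kept their direction and their side of the threshold, 16 newly passed it, 48 changed sign (38 of them on leaving out a sample), and 16 members never changed sign. Members with an adjusted p under 0.05, 0 as reported, numbered 1 by the likelihood ratio test (864 of 16959 genes) and 7 without a filter on low counts (903 of 35729). They numbered 4 with the replicate block (655 of 16959) and 0 to 2 on leaving out a sample (305 to 756 genes). The 4 with the block were SAMD9L, SAMD9, PARP14 and IFI44L, all higher, with adjusted p of 7.9e-04, 7.3e-04, 0.0320 and 0.0044 by edgeR. At an unadjusted p under 0.05, members numbered 5 as reported, 3 by DESeq2 (2638 of 35729 genes) and 17 without the filter (3700 of 35729). They numbered 9 with the block (2730 of 16959) and 3 to 11 on leaving out a sample (2235 to 3094 genes). Differentially expressed members, 0 as reported, numbered 1 by the likelihood ratio test (193 of 16959 genes) and 2 without the filter (177 of 35729). They numbered 2 with the block (137 of 16959) and 0 to 1 on leaving out a sample (86 to 135 genes). On leaving out a sample, members whose groups do not overlap numbered 0 to 4. Leaving out a sample can only keep or raise this number, and the same share over all genes was not computed, so no change is read from it. On leaving out a sample, the members' median log2 fold change ran from -0.12 to 0.25. The lowest median was without shIER5L replicate 1 and the highest without shIER5L replicate 4. The labels number the replicates alike in both groups without saying that same-numbered samples are paired. Over all genes kept, the deviations of same-numbered samples from their group means correlated at -0.09, 0.14, -0.08 and 0.20 for numbers 1 to 4. Only shScramble replicates 2 and 4 correlated best with their own number. Such correlations over all genes cannot decide whether same-numbered samples shared an experiment, so the results with and without the block are both given. Over all genes, the counts with an adjusted p under 0.05 ran from 305 (without shScramble replicate 3) to 916 (DESeq2), against 666 as reported. They numbered 341 without shScramble replicate 2, 358 without shIER5L replicate 3 and 434 without shScramble replicate 4.

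Stress response targets called numbered 5 by DESeq2, 5 with the replicate block and 2 to 6 on leaving out a sample. The sensing list numbered 0 to 1 on leaving out a sample. The log2 fold change of IER5L ran from -1.24 to -0.90 on leaving out a sample, and its adjusted p was not under 0.05 without shIER5L replicate 3, shScramble replicate 2 or shScramble replicate 3. HERC6 changed sign with a filter of 1 CPM in 4 samples (-0.0034), limma voom (-0.0248), no filter (-0.0011), the block (-0.0197), total counts (-0.0044) and upper quartile scaling (-0.0067). ISG15 did so with limma voom (-0.0299) and the block (-0.0204), RSAD2 (-0.0131) and XAF1 (-0.0421) with limma voom. On leaving out a sample, the log2 fold changes of the members whose sign changed ran as follows. BST2 ran from -0.0452 to 0.10, DDX60 from -0.33 to 0.13, DTX3L from -0.0197 to 0.0764, EIF2AK2 from -0.0876 to 0.0509, HERC5 from -0.10 to 0.0124 and HERC6 from -0.22 to 0.13. IFI27 ran from -0.43 to 0.48, IFI44 from -0.12 to 0.25, IFI6 from -0.34 to 0.41, IFIT1 from -0.17 to 0.40, IFIT2 from -0.046 to 0.12 and IFITM1 from -0.33 to 0.49. IRF7 ran from -0.28 to 0.10, ISG15 from -0.24 to 0.26, MX1 from -0.17 to 0.80, OAS1 from -0.13 to 0.39, OAS2 from -0.19 to 0.29 and OASL from -0.35 to 0.0741. RIGI ran from -0.0208 to 0.30, RSAD2 from -0.37 to 0.40, STAT2 from -0.018 to 0.16, TLR3 from -0.21 to 0.54, USP18 from -0.16 to 0.16 and XAF1 from -0.18 to 0.41. The cause of these changes was not tested.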
